A study of Homo sapiens with 8 samples.

Results

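The genes described here are 10 components of the Notch pathway, measured by RNAseq in A673 cells, an Ewing sarcoma line that carries the EWSR1-FLI1 fusion. They are the receptors NOTCH1, NOTCH2 and NOTCH3, the ligands JAG1, JAG2 and DLL1, and HES1, HES6, HEY1 and HEY2 of the HES/HEY family of transcriptional repressors. They were taken by symbol from the 34792 genes for which transcript counts could be summed, and all 10 were found. Of these, 8 were among the 15993 genes with enough reads to be tested, and HEY1 and HEY2 were not.

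The line used, A673/TR/shFEZF1, expresses on addition of doxycycline a short hairpin RNA (shRNA) directed at FEZF1, a zinc-finger transcription factor of the developing forebrain. The 8 libraries come from 4 origins, a polyclonal population and the stable clones 3, 5 and 6, each grown without doxycycline (control) and with 1 µg/mL doxycycline for 72 h. All cultures carry the tetracycline repressor, descend from 1 clone of A673/TR and hold the shRNA cassette, and the stable clones had been picked for loss of FEZF1 protein. No culture here received doxycycline without carrying the shRNA, so the drug and the knockdown cannot be told apart. Each origin gave 1 culture per condition, so that, with origin as a block in the model, p-values for doxycycline measure how the difference within a pair varied between origins, which includes whatever differs between single cultures.

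Notch receptors are activated by Delta or Jagged ligands on neighbouring cells. Cleavage by ADAM proteases and γ-secretase frees the intracellular domain, which enters the nucleus, binds RBPJ and recruits Mastermind (MAML) coactivators. HES and HEY genes are the classical targets and in neural tissue repress the proneural factors that start neuronal differentiation. Whether the pathway's components changed when FEZF1 was reduced, and how far they differed between the cultures to begin with, were the questions asked of these libraries.

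Where RBPJ may bind was looked up first, since it ties the targets to the receptors. Windows from RefSeq (GRCh38.p14) holding the letters TGGGAA, the core of an RBPJ site, on either strand within 250 bases before the start site are shown for HES1, the most abundant of the 10 genes, for HEY2, the least abundant, and for LFNG, the tested pathway gene with the lowest log2 fold change. Capitals mark TGGGAA, or TTCCCA where it lies on the opposite strand.
HES1, chr3:194136034-194136113 (plus strand): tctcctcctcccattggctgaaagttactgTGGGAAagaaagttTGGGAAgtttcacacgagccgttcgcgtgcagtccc
HEY2, chr6:125749389-125749454 (plus strand): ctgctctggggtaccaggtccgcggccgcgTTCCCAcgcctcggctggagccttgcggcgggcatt
LFNG, chr7:2517613-2517650 (plus strand, the second of 2 start sites listed): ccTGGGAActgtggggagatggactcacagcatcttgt
In HES1 the matches lay 84 and 70 bases before the start, in HEY2 213 bases and in LFNG 248 bases. Of 35116 promoters, 20.8% held TGGGAA at least once and 2.9% held it 2 or more times, as HES1 does, while 5.43% held GTGGGAA, a longer form that contains it. Of the 8 receptor, ligand and HES/HEY genes searched, HES1 and HEY2 held a match in this window and the other 6 did not. DLL1 and HEY1 had no promoter listed and were not searched. The letters TGGGAA are a description of sequence only. HES1 and HEY2 both carry them and differed widely in level, as the values below show.

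Between 26719886 and 42422421 reads per library were assigned to transcripts, of which 89.9% to 91.1% entered the gene sums. Values are CPM, counts scaled to library size after TMM normalization for library composition, or, where genes are compared with each other, TPM, which also takes transcript length into account. The clone 5 control file differed in layout from the other 7, with another order of transcripts and counts given to 3 decimals, and values without it or without clone 5 are given where they change a call. Of 8 Ewing sarcoma markers, among them CD99, NKX2-2 and NR0B1, all 8 were well above 1 CPM in every library. NR0B1 and NKX2-2 rose with doxycycline (log2 fold changes 0.67 and 0.30, adjusted p = 0.00745 and 0.0414 in edgeR's test) and LIPI fell (-0.30, adjusted p = 0.0203), with origin as a block. None of these 3 passed without the block (adjusted p = 0.124, 0.825 and 0.876 for NR0B1, NKX2-2 and LIPI), and their part in the results on the pathway was not tested.

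Markers of other cell types were mostly low. All 5 glial markers stayed below 1 CPM. Of 5 endothelial markers, 4 were below 1 CPM in every library, with CDH5 at 0, and KDR reached 2.33 CPM. Of the blood markers, PTPRC and CD3E (at 0) were below 1 CPM, while CD68 was at 3.98 to 11.1 CPM and HBB at 4.95 to 10.52 CPM. Of 5 epithelial markers, 4 were below 1 CPM, and EPCAM, at 0.0315 to 2.92 CPM, was higher with doxycycline in 4 of 4 pairs (adjusted p = 0.0501). None of the endothelial, blood and epithelial markers passed for doxycycline, and their part in the results was not tested.

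FEZF1 itself, on chromosome 7 (122301303 to 122310723), was lower with doxycycline at every origin. It was at 96.4 and 60.6 CPM in the control and doxycycline cultures of the polyclonal population, 70.5 and 43.0 in clone 3, 107 and 60.8 in clone 5, and 74.4 and 36.4 in clone 6. The groups did not overlap. With origin as a block, its log2 fold change was -0.81 (standard error 0.0726), with an adjusted p of 0.00594 (edgeR's quasi-likelihood test, Benjamini-Hochberg over all genes tested). Without the block it did not pass in edgeR's test (adjusted p = 0.29) but passed in DESeq2 (log2 fold change -0.81, adjusted p = 0.0154). In these bulk libraries, fewer cells of a kind and less RNA per cell cannot be told apart, and whether the authors' quantification used the strand, which separates FEZF1 from its antisense gene FEZF1-AS1, is not given in the sources used here.

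At baseline, receptors and 2 of the 4 repressors were well expressed, ligands were lower, and the HEY genes were close to absent. In the 4 control cultures HES1, which represses proneural genes and its own promoter, stood highest per length at 67.7 ± 6.70 TPM (SD, n = 4). NOTCH2, the most abundant receptor, followed at 35.3 ± 6.12 TPM, HES6, which counteracts HES1 and promotes neuronal differentiation, at 30.9 ± 7.88, and NOTCH3 at 21.0 ± 4.13. NOTCH1 was at 12.8 ± 2.40 TPM, JAG1 at 6.54 ± 3.34, JAG2 at 4.16 ± 2.62 and DLL1 at 0.646 ± 0.185.

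HEY1 and HEY2, which pair with HES proteins and are known best from heart and vessels, came last, at 0.246 ± 0.0365 and 0.00445 ± 0.00890 TPM. The control ranges of HES1 and NOTCH2 did not overlap, nor did those of NOTCH3 and NOTCH1, of JAG2 and DLL1, of DLL1 and HEY1 or of HEY1 and HEY2. NOTCH2, HES6 and NOTCH3 overlapped each with the next in this order, as did NOTCH1, JAG1 and JAG2. The JAG2 level is too low by an unknown amount, because its summed counts held 56.0% of the reads that the authors' mean of normalized counts for this gene implies. For NOTCH1, NOTCH2, NOTCH3, JAG1, DLL1, HES1 and HES6 that share was 99.0% or more.

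**Figure D1:**
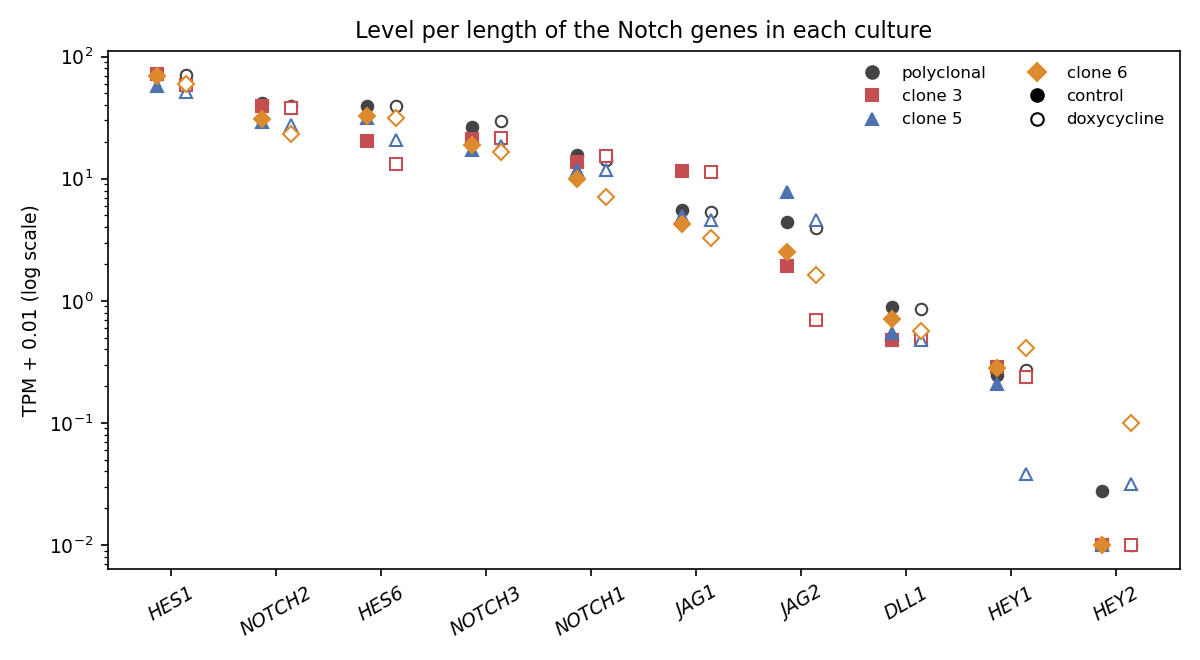
Level of the 10 genes in TPM plus 0.01 on a log scale, in each of the 8 cultures (filled symbols, control; open symbols, doxycycline; colour and shape give the origin). HES1 lies between 51.2 and 71.7 TPM in every culture, and HEY2 does not exceed 0.089 TPM in any.

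With doxycycline, none of the 8 tested genes passed the test, while 7 of them had a log2 fold change below 0 and 1 above, where 7881 of all 15993 genes tested were below 0. Of all 15993 genes tested, 7.63% were called (1221), 3.91% lower and 3.73% higher. At an unadjusted p under 0.05 there were 3 of the 8 (37.5%; NOTCH2, JAG2 and HES1), beside 24.8% of all genes. The median log2 fold change of the 8 was -0.17, and that of all genes 0.00. DESeq2 with the same block called 1 of the 8, JAG2, and 13.8% of the 13627 genes that it tested. Without the block edgeR called none of the 8 (smallest adjusted p 0.872) and 0.00625% of all genes, a single gene. DESeq2 without the block called none of the 8 as well, and 1.43% of all genes that it tested.

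Among the receptors, NOTCH2 (chromosome 1, 119911553 to 120069662) was the most abundant and was lower with doxycycline in 4 of 4 pairs. It was at 270, 274, 208 and 223 CPM in the controls of the polyclonal population and clones 3, 5 and 6, and at 258, 250, 193 and 175 CPM with doxycycline. The 2 groups overlapped, and clone 6 showed the widest gap. Its log2 fold change was -0.16 (standard error 0.0613), with an adjusted p of 0.154 in edgeR's test, and -0.10 without clone 6.

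NOTCH1 (chromosome 9, 136494433 to 136546048), the best studied of the receptors, was at 80.5, 75.4, 67.1 and 56.7 CPM in the same controls and at 74.1, 80.9, 65.5 and 41.5 CPM with doxycycline. Clone 6 with doxycycline was the lowest culture and clone 3 went the other way. Its log2 fold change was -0.12 (standard error 0.0896), with an adjusted p of 0.46 in edgeR's test, and -0.02 without clone 6.

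NOTCH3 (chromosome 19, 15159038 to 15200995), known best from vascular smooth muscle, was at 121, 102, 84.8 and 94.7 CPM in the controls and at 136, 99.8, 90.5 and 85.8 CPM with doxycycline. It was lower at 2 origins and higher at 2, and the log2 fold change was 0.02 (standard error 0.0651, adjusted p = 0.868 in edgeR's test). Its sign was not stable: it was -0.03 without the polyclonal population, -0.02 without clone 5 and -0.10 when only curated transcripts were summed. Of the NOTCH3 counts, 84.2% were assigned to a predicted transcript, XM_005259924.4.

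Of the ligands, JAG2 (chromosome 14, 105140995 to 105168776) had the smallest p of the 8 genes. It was at 14.4, 6.70, 27.5 and 9.03 CPM in the controls of the polyclonal population and clones 3, 5 and 6, and at 12.9, 2.29, 16.02 and 6.04 CPM with doxycycline. It was lower in 4 of 4 pairs, and as a log2 ratio the gap was smallest in the polyclonal population and widest in clone 3, but the groups overlapped widely, because clone 5 held more JAG2 with doxycycline than the controls of the other 3 origins did.

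For JAG2 the log2 fold change was -0.73 (standard error 0.2), with an adjusted p of 0.0674 in edgeR's test. It passed with DESeq2 and the block (adjusted p = 0.0114), with a filter of 1 count in some library (0.0225), with 10 counts required in every library (0.0374) and without the polyclonal population (0.0481), and its adjusted p over all 12 alternatives ran from 0.0114 to 0.998. Without clone 5 the log2 fold change was -0.74 (adjusted p = 0.215). Since these counts leave out much of the gene's reads, the change of the whole gene was not tested.

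JAG1 (chromosome 20, 10637684 to 10673999), the other Jagged ligand, was at 18.4, 41.0, 18.0 and 15.7 CPM in the controls and at 18.1, 38.5, 16.4 and 12.6 CPM with doxycycline. All 4 pairs were lower with doxycycline. Its log2 fold change was -0.14 (standard error 0.0801) and its adjusted p 0.345 in edgeR's test, and the log2 fold change was -0.08 without clone 6. In CPM, the gap between clone 3 and the other origins was larger than that between the conditions at any origin. DLL1 (chromosome 6, 170282206 to 170291078), a Delta ligand that maintains neural progenitors, stayed at 0.863 to 1.85 CPM, and its log2 fold change was -0.24 (standard error 0.206, adjusted p = 0.533 in edgeR's test).

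Of the HES/HEY genes, HES1 (chromosome 3, 194136148 to 194138732) was at 58.5, 62.5, 51.5 and 62.8 CPM in the controls and at 57.9, 49.0, 45.0 and 56.2 CPM with doxycycline. It was lower in 4 of 4 pairs, hardly so in the polyclonal population, and the groups overlapped. Doxycycline against control gave a log2 fold change of -0.18 (standard error 0.0699), with an adjusted p of 0.165 in edgeR's test.

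HES6 (chromosome 2, 238238267 to 238240038) was at 27.3, 15.0, 24.1 and 24.9 CPM in the controls and at 27.5, 9.50, 15.5 and 25.3 CPM with doxycycline. The origins split: clones 3 and 5 were lower with doxycycline, by 0.65 and 0.64 on the log2 scale with a pseudocount of 0.5, and the polyclonal population and clone 6 were at 0.01 and 0.02 on that scale. The log2 fold change over all 4 origins was -0.30 (standard error 0.14), with an adjusted p of 0.229 in edgeR's test, and -0.19 without clone 3. Whether the origins respond differently could not be tested with 1 pair each.

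HEY1 had 7 to 11 reads in each control, and 10, 10, 1 and 13 reads in the doxycycline cultures of the polyclonal population and clones 3, 5 and 6. HEY2 had 1 read in the polyclonal control, 1 in clone 5 with doxycycline, 4 in clone 6 with doxycycline and 0 in the other 5 libraries. A count of 0 allows up to 3 reads, or 0.0759 to 0.126 CPM depending on the library, and these limits cover counting error only. Changes in HEY2 were not detectable at this depth, and no fold is given for either gene.

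**Figure D2:**
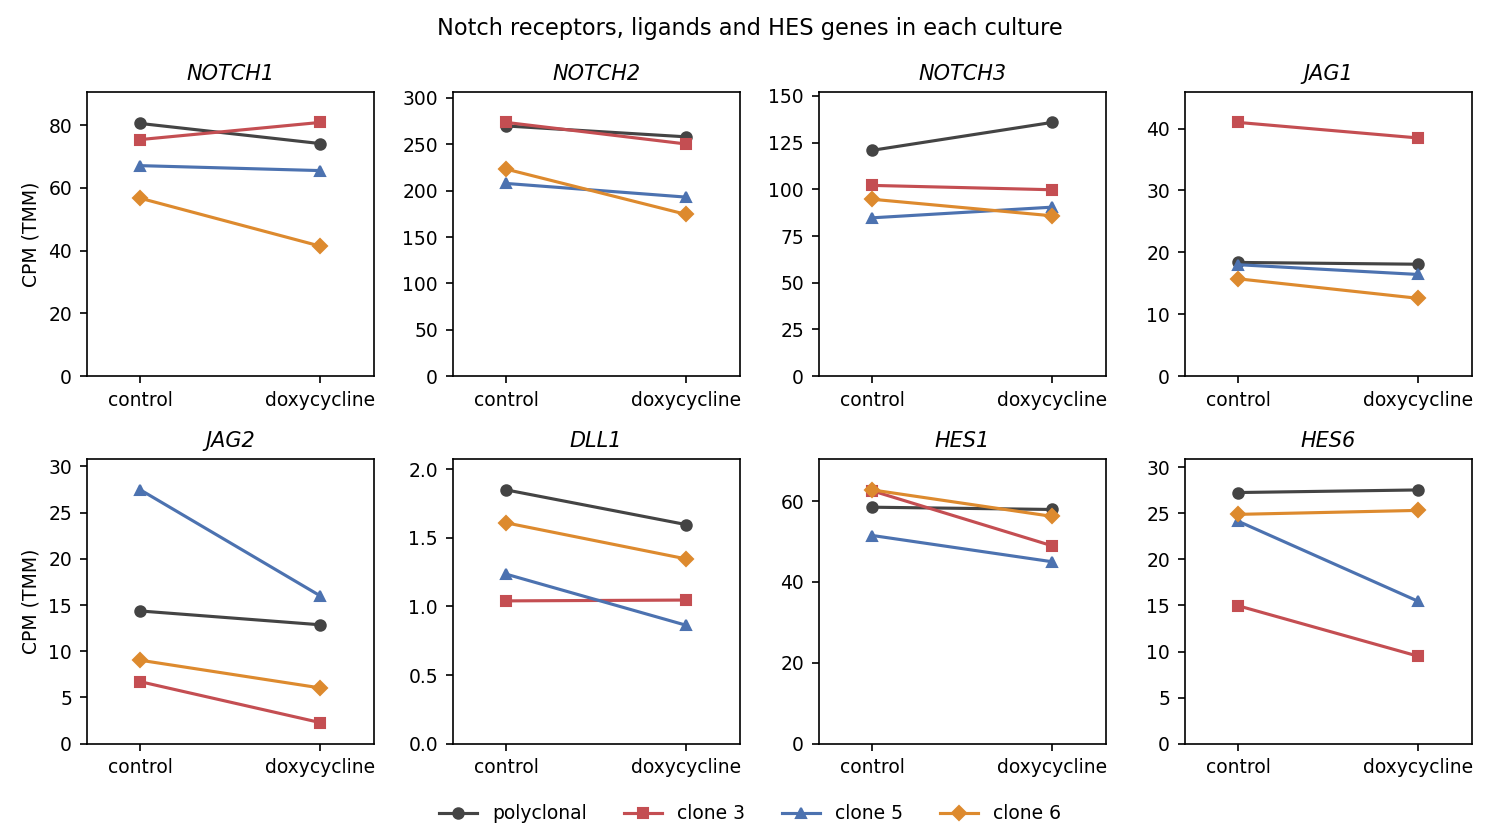
TMM-scaled CPM of the 8 tested genes in the control and doxycycline culture of each origin, with a line joining the 2 cultures of 1 origin and every axis starting at 0. The JAG2 lines all go down but are far apart (2.29 to 27.5 CPM), and the JAG1 line of clone 3 lies at 38.5 to 41.0 CPM, above all others.

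The origins differed in most of these genes. With treatment in the model, 6 of the 8 genes (75.0%) differed between the 4 origins in edgeR's test (JAG1, JAG2, NOTCH3, NOTCH2, HES6 and NOTCH1), where 39.4% of all genes tested did. DLL1 and HES1 did not pass (adjusted p = 0.14 and 0.11). Each origin stands for a single population or clone, and its 2 cultures were the replicates.

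JAG1 had the smallest p. The cultures of clone 3 held 39.7 CPM on average and the other 6 cultures 16.5 CPM, a ratio of 2.40, and clone 6 lay below all others at 14.2 CPM (adjusted p of the origin test in edgeR, 0.00043). It passed whichever library was left out (adjusted p from 0.00139 to 0.00597). Genes used here as fibroblast markers moved in the same clone: COL1A1, COL3A1, DCN, LUM and PDGFRA summed to 2542 and 2470 CPM in the clone 3 cultures and to 344 to 919 CPM in the other 6. Most of that sum was COL1A1 (mean 576 CPM) and COL3A1, while DCN and LUM were lowest in clone 3, at 2.68 to 3.59 and 0.378 to 0.61 CPM. Of these 5 genes 4 differed by origin and none passed for doxycycline in edgeR's test with the block. DESeq2 with the block called COL3A1 (adjusted p = 0.0377), which was higher with doxycycline in 4 of 4 pairs. Clone 3 stood apart for markers of other lists as well. Of 23 markers tested over all lists, 15 differed by origin (39.4% of all genes tested did). Of the same 23, 11 passed with both clone 3 cultures outside the other 6, 5 above and 6 below. Of all genes tested, 6.52% passed and lay above, and 5.13% below. Other origins stood apart too: both clone 6 cultures lay above the other 6 for CD99 and LIPI and below them for HBB. Both clone 5 cultures lay above the other 6 for PRKCB and EPCAM and below them for COL1A1, COL3A1, TUBB3 and KDR. Both polyclonal cultures lay above the other 6 for DCN. In clone 3, beside the collagens, CD68 (10.9 and 11.1 CPM against 3.98 to 5.27), KDR (2.33 and 1.83 against 0.218 to 0.835) and TUBB3 (670 and 692 against 269 to 554) were higher. CD99 (874 and 801 CPM against 1484 to 2367), NKX2-2, STEAP1 and PRKCB, of the Ewing sarcoma list, were lower in clone 3. The rest of that list was not. NR0B1 was highest in clone 3 within each condition (71.5 CPM among controls, 103 with doxycycline). CCND1, BCL11B and LIPI in clone 3 lay within the range of the other cultures. The part of all these genes in the JAG1 difference was not tested.

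For JAG2 the order of origins was another. Clone 5 was above all others at 21.7 CPM on average against 8.55 in the other 6, and clone 3 was lowest at 4.496 CPM (adjusted p of the origin test in edgeR, 0.00353). Without the clone 5 control the adjusted p was 0.0225. On average, clone 3 had the most JAG1 and the least JAG2 in these sums. The JAG2 sums held 56.0% of the reads the authors' mean implies, so the order of origins for the whole gene was not tested.

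HES6 was lowest in clone 3 (12.2 CPM on average against 24.1 in the other 6) and highest in the polyclonal population (27.4 CPM), with an adjusted p of 0.0119 in edgeR's origin test. NOTCH3 was highest in the polyclonal population (128 against 92.9 CPM in the other 6, adjusted p = 0.00939). NOTCH1 was lowest in clone 6 (49.1 against 73.9 CPM, adjusted p = 0.0153). For NOTCH2 the polyclonal population and clone 3 (264 and 262 CPM) stood above clones 5 and 6 (200.4 and 199 CPM), with an adjusted p of 0.0108. Single libraries decided 3 of these calls: the adjusted p rose to 0.0559 for HES6 without the doxycycline culture of clone 3, to 0.0737 for NOTCH3 without that of the polyclonal population, and to 0.0578 for NOTCH1 without that of clone 6.

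Around these genes, 71 further components of the pathway were listed, of which 69 had summed counts and 52 were tested. Of the 52, 5 passed with doxycycline (9.62%, beside 7.63% of all genes), 4 lower and 1 higher. The median log2 fold change of the 52 was -0.02. At an unadjusted p under 0.05 there were 17 (32.7%, beside 24.8% of all genes). Of the 52, DESeq2 with the block called 7, where it called 13.8% of all genes it tested. Without the block edgeR called none of the 52 (smallest adjusted p 0.417), and DESeq2 none either, where it called 1.43% of all genes it tested.

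LFNG (chromosome 7, 2512529 to 2529177), a fringe glycosyltransferase that extends O-fucose sugars on the receptors and shifts the response of NOTCH1 from Jagged towards Delta ligands, fell at each origin. It was at 12.7, 24.0, 11.4 and 20.1 CPM in the controls of the polyclonal population and clones 3, 5 and 6, and at 7.31, 12.0, 5.41 and 8.71 CPM with doxycycline. With a pseudocount of 0.5, the log2 ratios of the pairs ran from -1.20 in clone 6 to -0.80 in the polyclonal population, and the groups overlapped, because clone 3 with doxycycline held slightly more than the clone 5 control. The log2 fold change was -1.02 (standard error 0.103), with an adjusted p of 0.00594 in edgeR's test. It passed in 10 of 12 alternatives, the exceptions being the fits without the block, by edgeR (adjusted p = 0.417) and by DESeq2 (0.0604).

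LFNG also differed by origin (adjusted p = 0.00432), with 18.0 CPM on average in clone 3 and 8.40 in clone 5. Most of its counts were assigned to NM_002304.2 (66.1%), with a log2 fold change of -1.20, and 30.2% to NM_001040167.2, with -0.77. Of 37914 transcripts tested, 0% were called by edgeR with the block (3170 at an unadjusted p under 0.05), so no isoform of LFNG or of the 8 genes can be singled out. Of the other fringe genes, RFNG stayed at 19.97 to 26.4 CPM (adjusted p = 0.26), and MFNG had at most 1 read in a library.

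Of the γ-secretase subunits, NCSTN, or nicastrin, which binds the substrate, was at 99.7, 127, 81.9 and 108 CPM in the controls and at 84.6, 98.0, 70.0 and 87.7 CPM with doxycycline. It fell in 4 of 4 pairs, by 0.28 on the log2 scale (standard error 0.0537, adjusted p = 0.0246 in edgeR's test). PSEN2, APH1A, APH1B and PSENEN did not pass. Of these PSEN2, a catalytic subunit, was nearest, with 4.89 to 7.91 CPM in the controls and 8.33 to 11.1 CPM with doxycycline and an adjusted p of 0.0773.

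The coactivators MAML2 and MAML3 fell and MAML1 did not pass. MAML2 was at 18.0, 18.0, 11.8 and 17.3 CPM in the controls and at 11.1, 14.3, 9.80 and 9.65 CPM with doxycycline, a log2 fold change of -0.54 (standard error 0.121) with an adjusted p of 0.0402 in edgeR's test. MAML3 was at 8.15, 5.64, 5.04 and 8.69 CPM in the controls and at 6.42, 3.58, 3.25 and 4.46 CPM with doxycycline, a log2 fold change of -0.64 (standard error 0.149) with an adjusted p of 0.0433. MAML1, the most abundant of the family, was between 86.9 and 138 CPM. RBPJ, the DNA-binding partner, was between 40.4 and 49.3 CPM, with a log2 fold change of -0.10 and an adjusted p of 0.539 in edgeR's test, from sums that held 36.9% of the reads its authors' mean implies.

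DTX4, an E3 ubiquitin ligase of the Deltex family, which acts on receptor trafficking, rose in 4 of 4 pairs and its groups did not overlap. It was at 0.886, 1.80, 1.16 and 0.442 CPM in the controls and at 1.93, 2.67, 3.19 and 2.27 CPM with doxycycline. On the log2 scale it was higher by 1.305 (standard error 0.291), with an adjusted p of 0.0396 in edgeR's test. None of NCSTN, MAML2, MAML3 and DTX4 passed without the block (adjusted p from 0.503 to 0.767), and NCSTN, MAML2 and MAML3 also lost their call when any 1 origin was left out. The DTX4 call held without clone 3 (adjusted p = 0.0469) and was lost without any other origin. When only curated transcripts were summed, MAML2, MAML3 and DTX4 did not pass (adjusted p = 0.0806, 0.0781 and 0.0791 in edgeR's test). Of 5 neuronal markers, SYP, a synaptic vesicle protein, also fell with doxycycline (log2 fold change -0.93, adjusted p = 0.00833 with the block and 0.238 without it), TUBB3 and SNAP25 did not pass, and RBFOX3 and STMN2 stayed below 1 CPM. TUBB3, the most abundant (mean 484 CPM), made up most of their sum, which was 319 to 686 CPM in the controls and 282 to 704 CPM with doxycycline, and the part of such genes in the pathway results was not tested.

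**Figure D3:**
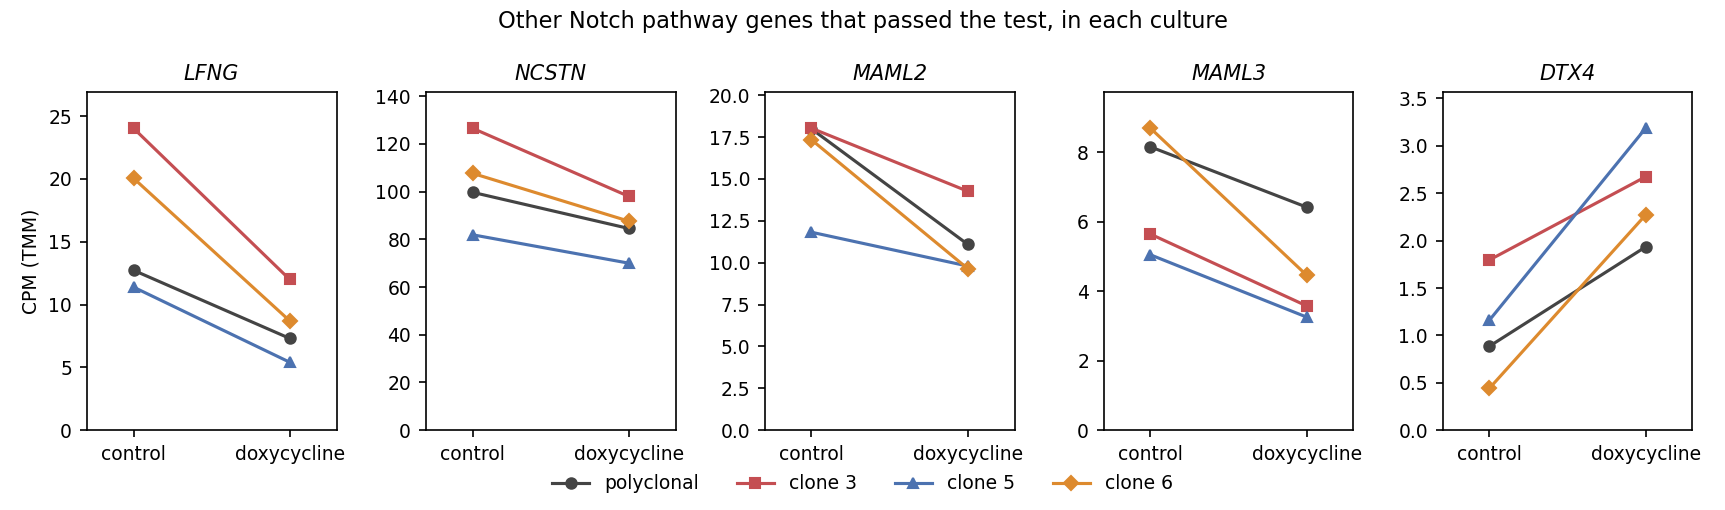
TMM-scaled CPM of the 5 other pathway genes that passed the test, in the control and doxycycline culture of each origin, with every axis starting at 0. The 4 origins move the same way in all 5 genes, and LFNG goes from 11.4 to 24.0 CPM in the controls to 5.41 to 12.0 CPM with doxycycline.

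The remaining receptors and targets gave no call. NOTCH4, an endothelial receptor, was at 0.653 to 1.43 CPM in the controls and at 0.407 to 0.865 CPM with doxycycline (adjusted p = 0.086 in edgeR's test). DLL3, a ligand that acts inside the expressing cell, was at 0.664 to 1.81 CPM over all libraries, and DLL4 had at most 0.133 CPM. NRARP, a target that feeds back on the receptors, was lower in 4 of 4 pairs (3.88 to 9.76 CPM in the controls, 2.35 to 7.90 CPM with doxycycline, adjusted p = 0.108).

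HES4 was higher in 4 of 4 pairs at 0.458 to 1.80 CPM over all libraries (adjusted p = 0.212), HES5 had 1 read in 1 library, and HEYL, with 7.09 and 5.96 CPM in clone 3 and 2.36 to 3.87 CPM elsewhere, differed by origin (adjusted p = 0.00899) and did not pass for doxycycline (0.926). None of the 7 proneural factors listed, NEUROG1 and NEUROD1 among them, had enough reads to be tested.

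By origin, 24 of the 52 passed (46.2%, beside 39.4% of all genes). Of the 52, 6 passed with both clone 3 cultures above the other 6, HEYL among them (6.52% of all genes tested). APH1B and NRARP passed with both below (5.13% of all). The counts for the other origins are also out of the 52 and hold only genes that passed. Both clone 5 cultures lay above the rest for NRARP (4.54% of all) and below for 4 genes (6.4% of all). For NRARP and ITCH the order of the origins' means was the same as for JAG2. The share of all genes with that order was not counted. Clone 6 lay above the rest for 4 genes (9.03% of all) and below for 8, among them HEYL, MAML1, CREBBP and SPEN (8.62% of all). The polyclonal population lay above the rest for FURIN (2.28% of all) and below for KAT2B (2.48% of all).

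NOTCH2 has partial copies, the NOTCH2NL genes, which share reads with it, so their values are uncertain. NOTCH2NLA was at 12.1 to 16.1 CPM and NOTCH2NLC at 14.8 to 20.8 CPM, and neither passed (adjusted p = 0.972 and 0.223 in edgeR's test). NOTCH2NLB was at 0 in all 4 controls and in clone 5 with doxycycline, and at 6.49, 7.54 and 5.91 CPM in the other 3 doxycycline cultures. Its sums held 15.0% of the reads the authors' mean implies, and it was not among the genes tested by edgeR, whereas DESeq2, which filters otherwise, called it with and without the block (adjusted p = 0.0499 and 0.0333). DTX1, another Deltex ligase that was not tested, went the other way: it had 85.8, 20.5 and 56.7 reads in the controls of the polyclonal population and clones 5 and 6 (2.17, 0.743 and 2.28 CPM) and 0 in the clone 3 control and in all 4 doxycycline cultures. Its sums held 16.7% of the reads the authors' mean implies.

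**Figure D4:**
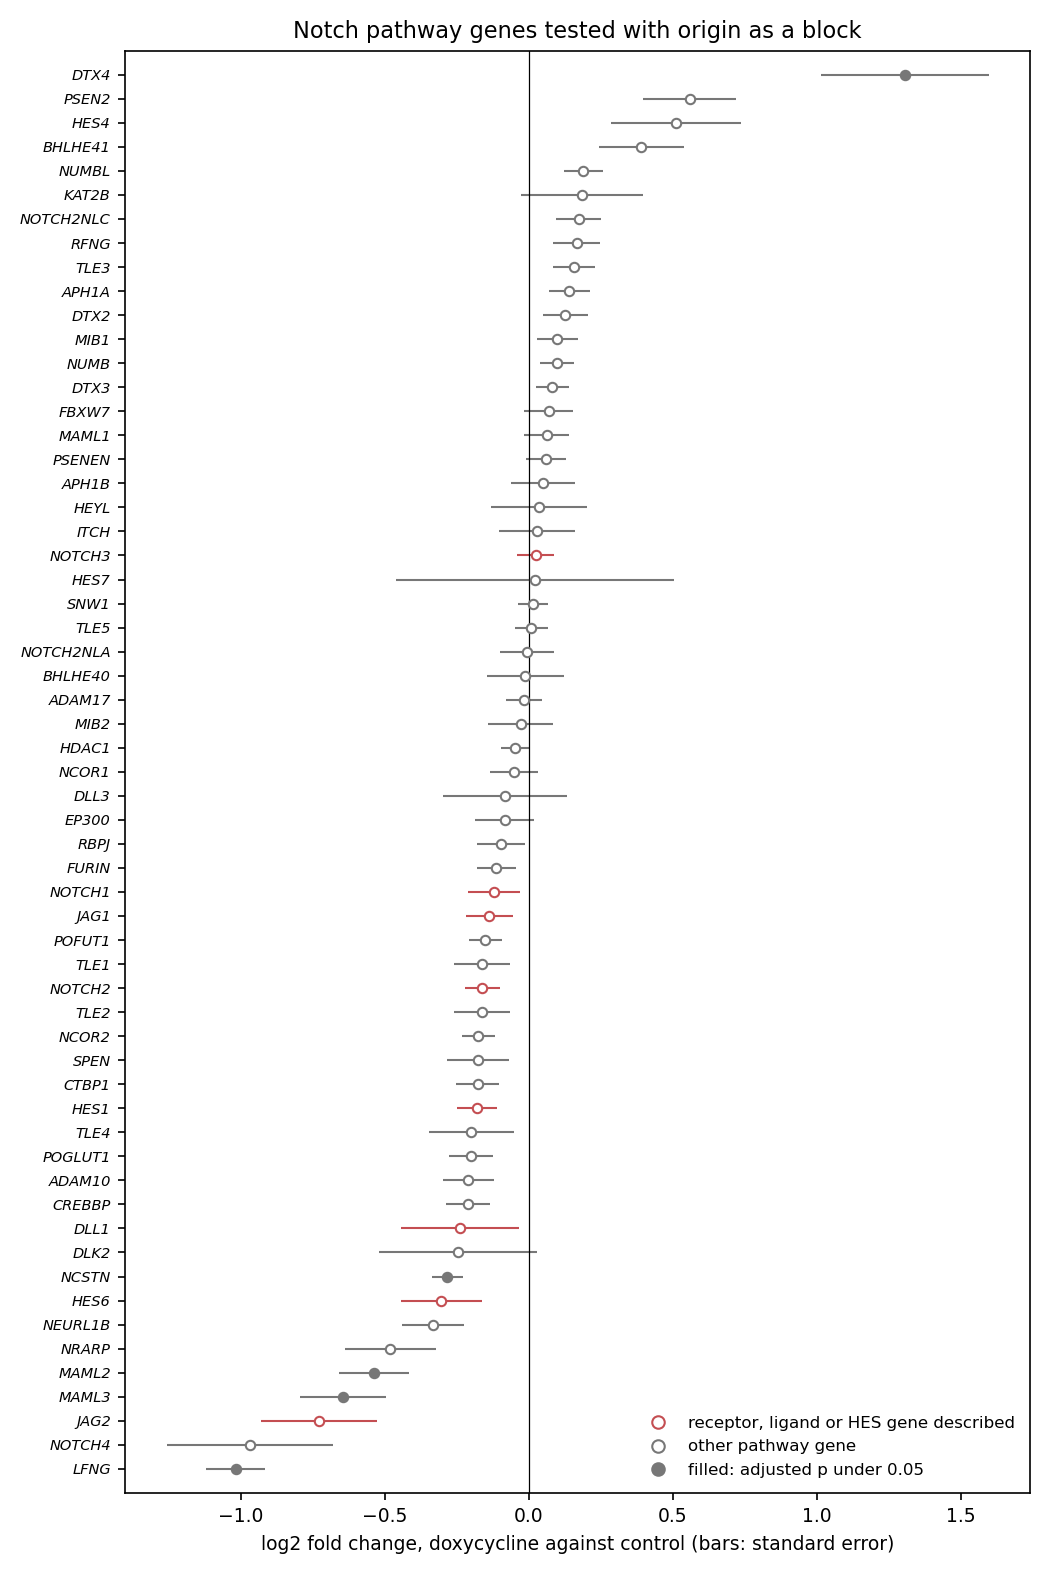
Log2 fold change with doxycycline against control for 59 of the 60 tested pathway genes, with origin as a block; bars are standard errors and filled points have an adjusted p under 0.05. The 8 receptors, ligands and HES genes (red) lie between -0.73 and 0.02, all open, and LFNG is lowest at -1.02.

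The 4 genes whose pattern over the 8 libraries was most like that of JAG2, among 9445 genes with a mean of at least 10 CPM, were TMEM151B (Pearson r = 0.983), MOV10 (0.975), C10orf95-AS1 (0.972) and FASTK (0.969). These correlations of log2 CPM are a description over 8 libraries that come in pairs of 1 origin. TMEM151B ran from 4.37 to 25.8 CPM and passed with doxycycline in edgeR's test (log2 fold change -0.60, adjusted p = 0.0397), and the other 3 did not.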

How the data were processed

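RNA was sequenced in 8 libraries, 4 per condition. Per the paper's methods, stranded paired-end libraries were quantified with Salmon on GRCh38 transcripts, and the authors deposited estimated counts and TPM per transcript. The authors' deposited mean of normalized counts (signal) was used only to see what share of a gene's reads was matched; their fold changes, p-values and scores were not used. Of 158867 transcripts, 72.6% (99.2% of curated, 50.3% of predicted) were matched to RefSeq symbols (GRCh38.p14). Sums were rounded, filtered by filterByExpr and scaled by TMM. The main model in edgeR 4.0.16 (R 4.3.3) held origin and treatment, with quasi-likelihood tests and Benjamini-Hochberg adjustment at 0.05. The test of origin took the 3 origin coefficients together. Alternatives were edgeR without the block, DESeq2 1.42.0, other scalings and filters, and left-out cultures.

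Control and doxycycline cultures of 1 origin come from the same cells, and their deviations from the group means correlated at 0.406 to 0.59 (other origins, -0.395 to 0.179). The genes and lists were chosen with earlier results of these data known; those named are the 10 genes, FEZF1, called pathway genes, a fixed set of relatives, and genes most like the member with the smallest p, of 5 that the rule takes; a few single genes that these rules name are not reported here. Fits were tested on simulated data.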

Additional observations from a re-analysis of the deposited data

Results flagged for a closer look

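In 51 groups of 4 cultures, 1 library lay far from the other 3 in 5. For 4 cultures that are alike, chance gives about 1 in 20 (2.55). The cultures of a group come from different origins, and 39.4% of all genes tested differed by origin, so that rate cannot be applied here. JAG1 was at 41.0 CPM in the clone 3 control and at 15.7 to 18.4 CPM in the other controls, and HEYL was at 7.09 CPM in the same library against 2.49 to 3.16. Clone 3 with doxycycline was high for both genes as well. JAG1 was at 38.5 CPM there against 12.6 to 18.1 in the other doxycycline cultures, and HEYL at 5.96 against 2.36 to 3.87. The clone 5 control, whose file had another layout, was low for RBPJ (41.0 against 48.3 to 49.3 CPM) and for MAML2 (11.8 against 17.3 to 18.0 CPM). NOTCH4 was at 0.865 CPM in clone 6 with doxycycline and at 0.407 to 0.432 CPM in the other doxycycline cultures.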

How the results depend on the processing

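The number of genes called with doxycycline was 1221 with the replicate block (625 lower, 596 higher), 1 with no replicate block (1 lower, 0 higher), 1881 with DESeq2 and the block (1059 lower), 210 with DESeq2 and no block (111 lower, 99 higher) and 493 from curated transcripts (280 lower, 213 higher). Leaving out 1 origin gave 175 (without clone 5) to 699 genes, 105 to 435 lower and 70 to 264 higher. Of the 8 genes, 0 were called, or 1 (JAG2) with DESeq2 and the block, with 1 count in some library or with 10 counts in every library, and 0 to 1 when an origin was left out. Of the other pathway genes, 5 were called, 0 without the block, 8 with DESeq2 and the block (7 of the 52 and NOTCH2NLB), 1 with DESeq2 and no block (NOTCH2NLB), 2 from curated transcripts and 1 to 3 without 1 origin, some of them genes outside the 52. The log2 fold change of FEZF1 without the block was -0.80 in edgeR (adjusted p = 0.29) and -0.81 in DESeq2 (adjusted p = 0.0154). It was -0.86 to -0.74 without 1 origin. NOTCH3 changed sign, to -0.10 from curated transcripts, and was -0.031 (without the polyclonal population) to 0.076 (without clone 6) when 1 origin was left out, with -0.02 without clone 5. The 7 other genes kept their sign under all 12 alternatives. For origin, 6300 genes were called, 4054 from curated transcripts and 3448 to 5710 without 1 library, an alternative chosen after seeing the data, under which 5 to 6 of the 8 genes were called. Fewer samples or genes entered the fits without an origin or from curated transcripts. The cause of the other changes was not tested.

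Depth limits HEY1 and HEY2, with at most 13 and 4 reads in a library. The sums leave out part of the reads of JAG2, HEY2, RBPJ and 10 other pathway genes, each with under 80% matched.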
